A study of Mus musculus with 6 samples.

Results

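The genes described here encode the scaffold of the heart sarcomere: titin (Ttn), the M-band proteins Myom1, Myom2 and Myom3, and the Z-disc proteins Actn2, Ldb3, Myoz2, Mypn and Nebl. They were chosen by symbol, and all 9 were found among the 24062 gene symbols of the count table. RNA-seq had been run on both ventricles of male mice of the C57/Bl6N strain at an age of 1 day. Of the 6 libraries, 3 came from controls without Cre (CTL, CreNEG) and 3 from mice carrying Cre for a cardiac-specific deletion of Med12 (Med12cKO, CrePOS). Med12 encodes a subunit of the Mediator complex, which relays signals from transcription factors to RNA polymerase II. The sources name neither the driver of Cre nor the state of the Med12 allele in the controls. Cre was present in the Med12cKO group alone, so Cre itself and the loss of Med12 cannot be told apart as sources of any difference.

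The sarcomere is the repeating contractile unit of striated muscle. Its thin actin filaments are anchored at the Z-disc, where alpha-actinin crosslinks them, and its thick myosin filaments are tied together at the M-band by myomesins. Titin spans from Z-disc to M-band as an elastic filament, and in the heart its splice forms shift towards stiffer ones after birth. Myom2 and Myom1 are the myomesins of adult heart, while Myom3 is known mainly from skeletal muscle.

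Totals ran from 8453346 to 10911698 counts per library, and 13629 genes passed the filter on low counts, all 9 scaffold genes among them. Values are TMM-scaled CPM, the reads of a gene as a share of the library total, given as mean ± SD with n = 3 per group. Med12 measured 103, 176 and 113 CPM in CTL replicates 1 to 3 and 61.6, 85.0 and 41.3 CPM in Med12cKO replicates 1 to 3. Its groups did not overlap, and an exact two-sided permutation test gave p = 0.1, the lowest value this design can reach. Its edgeR adjusted p was 0.765. Cardiomyocyte markers were abundant in each library: 12 genes such as Myh6, Tnnt2 and Actc1 summed to 50474 to 63930 CPM in CTL and 40193 to 51734 CPM in Med12cKO. In bulk RNA, fewer cells of a type and less RNA per cell cannot be told apart.

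Some libraries also held transcripts of other tissues. The 12 thymus and T-cell markers summed to 829.8 CPM in CTL replicate 3 and 837 CPM in Med12cKO replicate 1, against 3.43 to 5.52 CPM in the other 4 libraries. The 20 skeletal muscle markers summed to 342 CPM in Med12cKO replicate 1 and 92.2 to 115 CPM elsewhere. In the other 5 libraries 2 to 5 of these 20 were at 0. The 4 lung markers summed to 54.8 CPM in CTL replicate 1 and 77.6 CPM in Med12cKO replicate 2, both of which carry a description beginning with J, and to under 1 CPM elsewhere.

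Per kilobase of annotated exon, Actn2 stood highest and Myom3 lowest of the 9 genes. Actn2, the alpha-actinin of heart Z-discs, measured 539.9 ± 42.8 CPM per kilobase in CTL. Ldb3, a PDZ and LIM domain protein that binds alpha-actinin, measured 218 ± 27.5 CPM per kilobase. Myom2 (155 ± 29.7), the calcineurin-binding Z-disc protein gene Myoz2 (143 ± 18.8) and Myom1 (112 ± 20.7 CPM per kilobase) followed. Ldb3 lay above Myom2 in each of the 6 libraries, although their ranges over the libraries overlapped. Myom2 and Myoz2, and Myoz2 and Myom1, changed order from library to library. Ttn (22.8 ± 3.07) and Mypn (22.05 ± 2.73 CPM per kilobase) also changed order between libraries, and both lay below Myom1 in every library. Mypn encodes myopalladin, a Z-disc protein that binds alpha-actinin and the nebulin family. Nebl, the cardiac relative of nebulin, measured 2.63 ± 1.01 CPM per kilobase, and Myom3 0.441 ± 0.0967. Divided by the longest annotated transcript in place of all exon bases, the CTL means of Myom2 and Ldb3 (269.7 and 260.1) changed places, as did those of Myom1 and Myoz2 (207 and 203 CPM per kilobase).

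**Figure D1:**
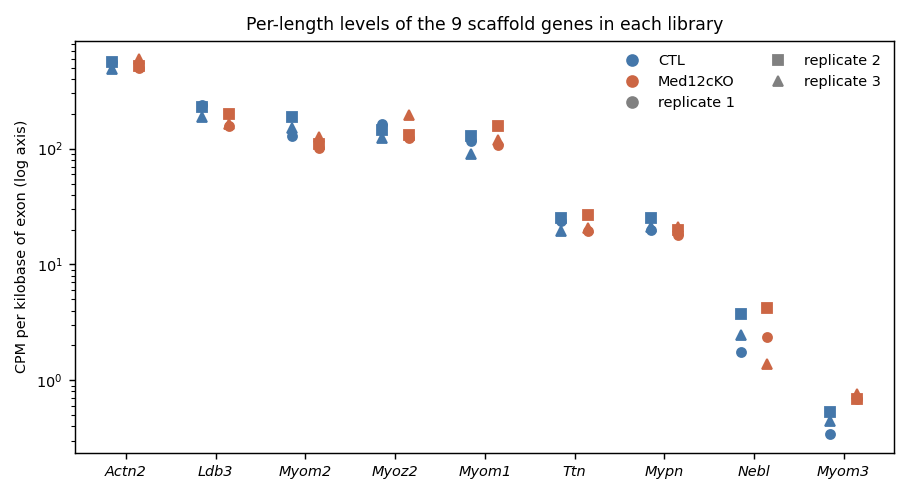
TMM-scaled CPM per kilobase of annotated exon (log axis) for the 9 scaffold genes, one point per library, blue for CTL and orange for Med12cKO, with symbols for replicates. Actn2 lies between 491 and 589 in all 6 libraries, Ttn between 19.3 and 27.0, and Myom3 between 0.343 and 0.766.

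Promoters are shown for titin, for 2 M-band genes far apart in level (Myom1 and Myom3) and for Ldb3, so that the upstream sequences can be compared. Of the 9 genes, 8 had an entry in the RefSeq promoter table (GRCm38.p6), with 12 windows of 250 bases before a start site; Myom2 had none. Capitals mark a MEF2 motif (the site bound by MEF2 factors in muscle genes) in Ttn and Myom3, and a CArG box (the site bound by serum response factor) in Myom1 and Ldb3. Each sequence is written 5′ to 3′ on the gene's strand and leaves out bases annotated as exon. The stretches are chr2:76982548-76982797 (minus strand) for Ttn, chr17:71019307-71019520 (plus strand) for Myom1, chr4:135759465-135759714 (plus strand) for Myom3 and chr14:34588683-34588931 (minus strand) for Ldb3.
Ttn: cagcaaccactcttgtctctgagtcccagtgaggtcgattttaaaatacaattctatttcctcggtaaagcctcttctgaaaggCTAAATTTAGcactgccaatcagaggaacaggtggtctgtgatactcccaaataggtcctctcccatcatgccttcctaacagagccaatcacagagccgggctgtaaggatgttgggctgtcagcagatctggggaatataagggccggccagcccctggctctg
Myom1: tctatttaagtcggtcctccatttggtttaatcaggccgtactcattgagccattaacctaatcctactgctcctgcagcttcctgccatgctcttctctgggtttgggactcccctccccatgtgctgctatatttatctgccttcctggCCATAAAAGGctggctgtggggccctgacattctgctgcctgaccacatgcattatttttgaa
Myom3: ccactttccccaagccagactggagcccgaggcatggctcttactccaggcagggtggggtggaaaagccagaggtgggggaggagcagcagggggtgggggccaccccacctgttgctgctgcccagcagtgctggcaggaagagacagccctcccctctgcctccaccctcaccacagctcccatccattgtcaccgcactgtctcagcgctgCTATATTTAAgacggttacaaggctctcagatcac
Ldb3: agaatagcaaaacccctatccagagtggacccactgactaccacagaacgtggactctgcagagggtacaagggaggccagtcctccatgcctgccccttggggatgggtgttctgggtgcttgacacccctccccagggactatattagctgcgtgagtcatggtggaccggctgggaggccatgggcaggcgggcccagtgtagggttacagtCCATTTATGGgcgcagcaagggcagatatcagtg
The MEF2 motif of Myom3 began 35 bases before the start site and that of Myoz2, CTATATATAG, 33 bases before it. The last 28 bases of the Myoz2 window are annotated as exon, so its motif, at bases 33 to 24, lies partly in exon. In Ttn the motif began 166 bases upstream. Both patterns were searched on both strands, and each reads the same on either strand. A MEF2 motif stood in 3 of the 8 genes with an entry (3 of 12 windows) and in 2.92% of all 32851 promoter windows of this length. A CArG box stood in Myom1, Ldb3 and 1 start of Nebl (4 of 12 windows) and in 1.47% of all windows. The 2 windows of Ldb3 overlap and hold the same box, so these are 3 distinct sites. The boxes of Myom1 and Nebl lie within the annotated spans of these genes, and whether transcription begins at those start sites was not tested. The windows of Actn2 and Mypn held neither a MEF2 motif nor a CArG box, while every promoter shown above holds 1 of them. Among other motifs, TATAAA, which a MEF2 motif can contain, was in 1 of 12 windows (12.4% of all), GATAA in 4 (22.6%), CATTCC in 2 (12.6%) and CANNTG in 8 (66.2%). Such matches describe letters only.

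None of the 9 scaffold genes passed the test of Med12cKO against CTL across all genes. At an edgeR adjusted p under 0.05, 0 of the 9 were called, where 0.022% of the 13629 genes tested were. At an unadjusted p under 0.05 edgeR reached 2 of 9, Myom2 lower and Myom3 higher, where 3.78% of all genes tested were reached (2.16% higher and 1.61% lower). DESeq2 called 0 of 9 (0.477% of all genes tested) and limma-voom 0 of 9 (0.0293%), and each had 2 at an unadjusted p under 0.05 (3.4% and 3.76% of all genes). These were Myom2 and Ldb3 in DESeq2 and Myom2 and Myom3 in limma-voom. The groups did not overlap in 2 of the 9 genes, Myom2 and Myom3, against 8.23% of all genes tested (4.59% higher and 3.64% lower). The median log2 fold change of the 9 was −0.012 and their median size without sign 0.17, beside 0.0081 and 0.10 over all genes tested. The 9 genes together took 0.911 ± 0.0739% of all counts in CTL and 0.876 ± 0.0744% in Med12cKO.

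**Figure D2:**
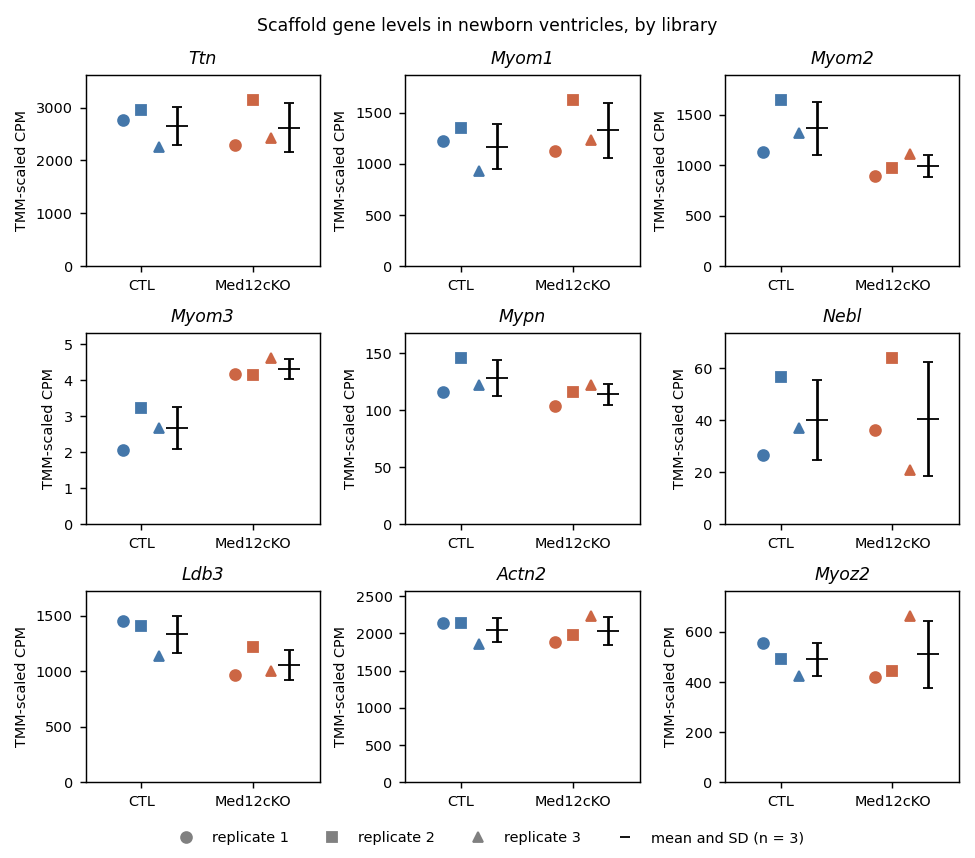
TMM-scaled CPM of each scaffold gene in every library, with the group mean and SD beside the points (n = 3; each axis starts at 0). The 3 Med12cKO points lie below all CTL points in Myom2 and above them in Myom3, and in the other 7 genes the groups overlap.

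Titin values overlapped fully between the groups. Ttn (chromosome 2, 76703980 to 76982547, minus strand) had 116825 annotated exon bases in 25 transcripts, the most among the 9 genes. It measured 2764, 2954 and 2259.7 CPM in CTL and 2292, 3152 and 2418 CPM in Med12cKO. The highest and the lowest library were Med12cKO replicate 2 and CTL replicate 3, so each group reached past the other on 1 side. Its edgeR log2 fold change was −0.021 (SE 0.18; adjusted p = 0.9999), with a 95% interval of the fold from 0.74 to 1.31. The table has 1 count per gene, so the splice forms of titin were not separated. Rbm20, the splicing factor that shortens titin in the heart, stood at −0.47 on the same scale (SE 0.23; edgeR adjusted p = 0.9999).

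At the M-band the 3 myomesin genes had log2 fold changes of different sign. Myom2 (chromosome 8, 15057653 to 15133541, plus strand), which encodes M-protein, measured 1131, 1652 and 1324 CPM in CTL. In Med12cKO it measured 893, 974.8 and 1111 CPM. All 3 Med12cKO libraries lay below all CTL libraries, though the highest Med12cKO and the lowest CTL value were close. The Med12cKO mean was 72.6% of the CTL mean, with a log2 fold change of −0.46 (SE 0.17; 95% interval −0.86 to −0.070; edgeR unadjusted p = 0.026, adjusted p = 0.9999). Without CTL replicate 2, the highest library, the log2 fold change was −0.30 (edgeR unadjusted p = 0.134).

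Myom1 (chromosome 17, 71002633 to 71126856, plus strand), the general myomesin of striated muscle, measured 1220.4, 1356 and 932 CPM in CTL. In Med12cKO it measured 1122, 1629.8 and 1234 CPM. The groups overlapped, and the log2 fold change of 0.18 (SE 0.20) was within the spread (95% interval −0.26 to 0.62). Of the exon bases of Myom1, 1.98% are shared with Myl12a on the opposite strand, and whether counting used strand is not stated in the sources.

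Myom3 (chromosome 4, 135759715 to 135815564, plus strand) was close to the counting limit. It had 18, 34 and 28 reads in CTL and 37, 42 and 43 in Med12cKO, or 2.66 ± 0.584 and 4.31 ± 0.271 CPM. Every Med12cKO library was above every CTL library. The log2 fold change was 0.69 (SE 0.27; 95% interval 0.082 to 1.29; edgeR unadjusted p = 0.030, adjusted p = 0.9999). DESeq2 gave an unadjusted p of 0.084. Med12cKO replicate 1, with the highest sum of skeletal muscle markers, measured 4.17 CPM against 4.14 and 4.63 CPM in replicates 2 and 3. Without it the log2 fold change was 0.70 (edgeR unadjusted p = 0.064). Single skeletal muscle markers differed in replicates 2 and 3. Mybpc1 (4.64 and 3.77 CPM) and Mybpc2 (16.7 and 11.7 CPM) stood above all CTL libraries there, as did Tnnt3 narrowly. Tnni2 (2.57 and 2.26 CPM) and Cacna1s stood below all CTL libraries. The part of skeletal muscle transcripts in the Myom3 values was not tested.

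The ratio of Myom2 to Myom1 within a library does not move with the scaling between libraries. Per kilobase of exon it was 1.10, 1.44 and 1.68 in CTL replicates 1 to 3. In Med12cKO replicates 1 to 3 it was 0.941, 0.707 and 1.06. The groups did not overlap, with log2 ratios of 0.47 ± 0.31 and −0.17 ± 0.30, although CTL replicate 1 and Med12cKO replicate 3 nearly met. Myom2 by itself already had separated groups, so the ratio is not an independent difference. How often other gene pairs separate in this way was not computed. The exon lengths set the height of this ratio and not the difference between groups, for which no test was run. The ratio of Myom3 to Myom1 overlapped between the groups (log2 ratio −7.99 ± 0.39 in CTL and −7.46 ± 0.32 in Med12cKO), as did that of Ttn to Actn2 (−4.57 ± 0.091 and −4.59 ± 0.29).

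**Figure D3:**
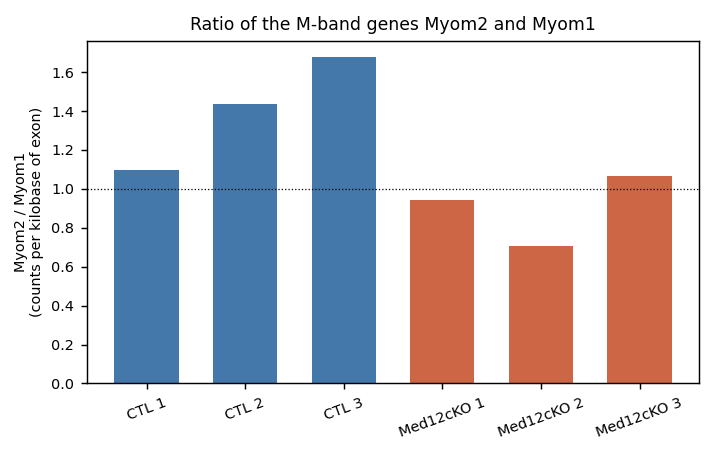
Ratio of Myom2 to Myom1, both in counts per kilobase of annotated exon, as one bar per library (blue CTL, orange Med12cKO; the dotted line marks 1). The CTL bars run from 1.10 to 1.68 and the Med12cKO bars from 0.707 to 1.06.

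Among the Z-disc genes, Actn2 (chromosome 13, 12269426 to 12340760, minus strand) overlapped between the groups. It measured 2139.9, 2145 and 1862 CPM in CTL and 1879.5, 1980.0 and 2237 CPM in Med12cKO. The group means of 2049 ± 162 and 2032 ± 184 CPM differed by far less than either SD. Its fold had a 95% interval from 0.79 to 1.25 (log2 fold change −0.012, SE 0.15).

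Ldb3 (chromosome 14, 34526603 to 34588682, minus strand) measured 1451, 1403 and 1139.5 CPM in CTL. In Med12cKO it measured 964, 1214 and 1000.4 CPM. Only Med12cKO replicate 2 rose above the lowest CTL library, so the groups overlapped by 1 library. The log2 fold change was −0.33 (SE 0.16; 95% interval −0.69 to 0.030; edgeR unadjusted p = 0.068, adjusted p = 0.9999). DESeq2 gave an unadjusted p of 0.026 for it. Beside this, the summed cardiomyocyte markers went from 50474 to 63930 CPM in CTL to 40193 to 51734 CPM in Med12cKO. The part of these markers in the values of Ldb3, Myom2 or any other scaffold gene was not tested. As a share of the CTL mean, the Med12cKO mean was 72.6% for Myom2 and 79.6% for Ldb3. It was 88.9% for Mypn, 98.5% for Ttn, 99.2% for Actn2 and 101% for Nebl. For Myoz2, Myom1 and Myom3 it was 104%, 114% and 162%.

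Myoz2 (chromosome 3, 123006206 to 123035015, minus strand), also called calsarcin-1, measured 554, 492 and 425 CPM in CTL and 422, 445 and 664 CPM in Med12cKO. Med12cKO replicate 3 alone lay above the CTL range, and the groups overlapped. Its log2 fold change was 0.059 (SE 0.19), and without that library it was −0.18. Mypn (chromosome 10, 63115795 to 63203952, minus strand) measured 116, 146 and 122 CPM in CTL and 104, 116 and 122 CPM in Med12cKO. The difference of −0.17 (SE 0.13) on the log2 scale was within the spread, with a 95% interval of the fold from 0.73 to 1.09.

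Nebl (chromosome 2, 17343909 to 17731464, minus strand) varied more within the groups than between them. It measured 26.5, 56.8 and 37.1 CPM in CTL and 36.2, 64.0 and 21.0 CPM in Med12cKO. The highest and the lowest library of the whole set were thus both Med12cKO. The highest CTL library was 2.15 times the lowest, and the highest Med12cKO library 3.05 times the lowest. In the other 8 genes this quotient lay between 1.12 and 1.58 in either group. The log2 fold change of 0.0099 (SE 0.48) left a 95% interval of the fold from 0.44 to 2.29. A change of 2-fold in either direction was therefore not excluded. The gene has 13 annotated transcripts with 4 start sites in the promoter table, and the table has a single count for the gene.

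The spread of Nebl was smaller once a trend on transcript length and GC content was removed. Its longest transcript has 40.1% GC, lower than in all but 6.0% of genes tested, and its exon length is at the 97.5th percentile. A trend on exon length and GC content was fitted to each library over genes above a mean log2 CPM of 3. This trend gave Nebl a term of 0.23 in Med12cKO replicate 2 and −0.20 in Med12cKO replicate 3 on the log2 scale. After removing it, the SD within groups went from 0.69 to 0.54 for Nebl, from 0.22 to 0.13 for Ttn, from 0.28 to 0.20 for Myom1 and from 0.29 to 0.28 for Myoz2. With this trend as an offset in edgeR the log2 fold changes were −0.050 (SE 0.36) for Nebl and −0.042 (SE 0.12) for Ttn. Neither passed.

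**Figure D4:**
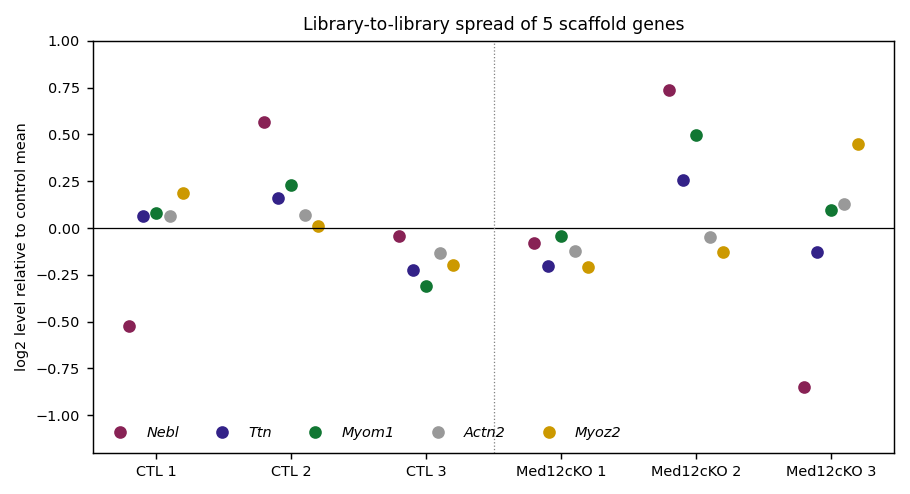
Level of Nebl, Ttn, Myom1, Actn2 and Myoz2 in each library as log2 CPM relative to the CTL mean (pseudocount 0.5 CPM), one point per gene and library. Nebl runs from −0.85 in Med12cKO replicate 3 to 0.74 in Med12cKO replicate 2, while Actn2 stays near 0.

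The genes whose library pattern was most like that of Ttn were sought among 10783 other genes with an average log2 CPM of at least 3. Likeness was the root mean square difference in log2 CPM relative to the CTL mean over the 6 libraries. The trend on length and GC content was not removed for this. Its terms for Ttn ran from −0.19 in Med12cKO replicate 3 to 0.28 in Med12cKO replicate 2, and its part in the likeness was not tested. Slc12a7 (0.029), Ank2 (0.040), Zfp334 (0.044) and Mef2c (0.051) came nearest to Ttn. Slc12a7 encodes a potassium chloride cotransporter, Ank2 ankyrin-B, Zfp334 a zinc finger protein and Mef2c a MEF2 transcription factor of muscle. The nearest of the other scaffold genes was Myom1 (0.16). For Myom3, the gene with the largest fold change of the 9, they were 3632451O06Rik (0.073), Plcg2 (0.11), Aqp4 (0.12) and Esrrb (0.13). For Nebl, added after its values were seen, they were Gm5113 (0.065), Mdm4 (0.094), Strn (0.12) and Bicc1 (0.13). The other scaffold genes were farther from Nebl, with Ttn nearest at 0.47.

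Of 52 further genes of the Z-disc, the M-band, titin-associated signalling and filament assembly, 50 were tested and 0 were called by edgeR over all genes or by DESeq2. Myoz3 and Ankrd2 fell below the filter on low counts. At an unadjusted p under 0.05 edgeR reached 5 higher and 1 lower, and 6 had groups that were separated upwards and 3 downwards. Of all genes tested, 3.78% were at an unadjusted edgeR p under 0.05 (2.16% higher and 1.61% lower). Separated groups were found in 8.23% of all genes tested (4.59% upwards and 3.64% downwards). The median log2 fold change was 0.060 over the 50, 0.089 over 27 Z-disc and costamere genes, −0.11 over 13 M-band and titin-ligand genes and 0.0025 over 10 assembly genes, beside 0.0081 over all genes tested.

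The 5 at an unadjusted p under 0.05 with a positive log2 fold change included Pdlim7 and Pdlim3, which encode PDZ and LIM proteins related to Ldb3. Pdlim7 measured 104, 83.7 and 81.0 CPM in CTL and 113, 132 and 132 CPM in Med12cKO, with no overlap (log2 fold change 0.49, SE 0.13; edgeR adjusted p = 0.585). Pdlim3 measured 113, 94.1 and 79.4 CPM in CTL and 115, 134 and 127 CPM in Med12cKO (log2 fold change 0.39, SE 0.15). Actn1, an alpha-actinin found in non-muscle cells, measured 151 ± 5.36 and 192 ± 33.4 CPM (log2 fold change 0.34, SE 0.14). Without Med12cKO replicate 2 the log2 fold change of Actn1 was 0.21. The groups of all 3 genes were separated, and none passed the test. Of the exon bases of Actn1, 8.15% are shared with gene models on the opposite strand. The 7 smooth muscle markers summed to 1744 to 2368 CPM in CTL and 2461 to 3160 CPM in Med12cKO, and their part in these values was not tested. Their sum includes Des, which is also among the listed Z-disc genes. Des alone measured 1147, 1324 and 1082 CPM in CTL and 1090, 1197 and 1651 CPM in Med12cKO, with overlap. The sum also includes Cnn1, which edgeR called higher over all genes.

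Ankrd23 and Ankrd1 encode ankyrin repeat proteins that bind the elastic part of titin. Ankrd23 measured 49.3, 40.9 and 46.3 CPM in CTL and 66.5, 67.5 and 53.3 CPM in Med12cKO (log2 fold change 0.46, SE 0.14; edgeR adjusted p = 0.725). Of its exon bases 78.2% are shared with another gene model on the same strand, which makes its count uncertain. Ankrd1, named after its values were seen, measured 540.1 ± 78.4 and 789 ± 237 CPM with overlapping groups (log2 fold change 0.55, SE 0.21). Without Med12cKO replicate 2, its highest library, the log2 fold change was 0.28. Fhl2, a LIM protein that binds titin, was the 1 listed gene at an unadjusted p under 0.05 with a negative log2 fold change. It measured 1107, 1039 and 1006 CPM in CTL and 718, 749 and 992 CPM in Med12cKO (log2 fold change −0.36, SE 0.16; edgeR unadjusted p = 0.049). None of these 3 genes passed the test over all genes.

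**Figure D5:**
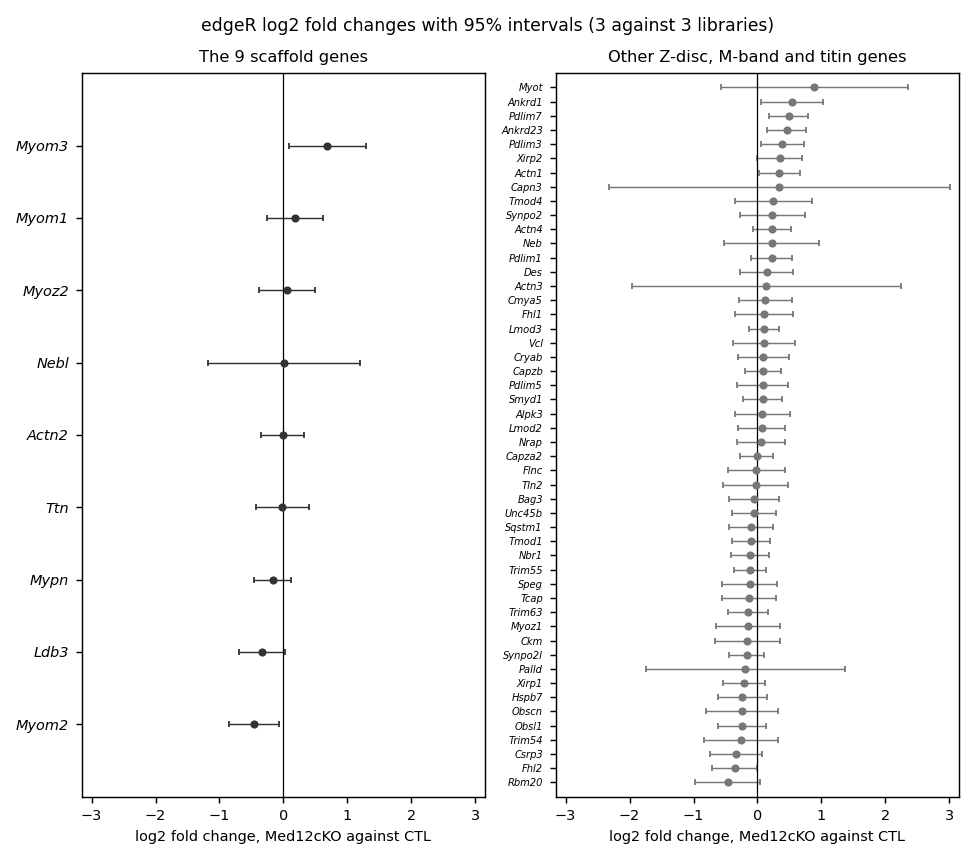
edgeR log2 fold changes of Med12cKO against CTL with 95% intervals from 3 against 3 libraries, for the 9 scaffold genes (left) and 50 other Z-disc, M-band and titin-associated genes (right). The intervals of Myom2 (−0.86 to −0.070) and Myom3 (0.082 to 1.29) do not reach 0, while those of the other 7 scaffold genes do. Intervals are not adjusted for the number of genes.

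The 2 differences with separated groups were recomputed in 2 subsets, each without some of the libraries that held other tissues. Each subset had 2 libraries per group. The first kept both libraries with lung transcripts, and the second kept both with thymus transcripts. Without both libraries holding thymus transcripts, edgeR gave Myom2 a log2 fold change of −0.42 (unadjusted p = 0.128) and Myom3 one of 0.70 (unadjusted p = 0.100). Among libraries whose description opens with I, which leaves out both with lung transcripts, edgeR gave −0.56 (unadjusted p = 0.036) and 0.58 (unadjusted p = 0.146). The J libraries are 1 per group and give no test of their own. There Myom2 stood at 1131 CPM in CTL and 974.8 CPM in Med12cKO.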

How the data were processed

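RNA-seq had been run on TRIzol-extracted total RNA of newborn ventricles. The authors deposited 1 table of unnormalized read counts by gene symbol. Per the submitters' processing notes the build was GRCm38 (mm10), with edgeR 3.14.0, featureCounts and TopHat2 2.0.0 as tools. Annotation, strand setting and library selection are not stated in the sources. No label says that each library is a separate animal, and p-values then cover only the spread between libraries, which may be technical. Pairs of libraries within a group differed by 15.3 to 31.04 chi-square per degree of freedom, so none was a repeat run. Depth is given with the results, and no read counts as an independent molecule, since no molecular identifiers are named.

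Groups came from the sample titles. Counts were tested with edgeR 4.0.16 (quasi-likelihood, robust, TMM, R 4.3.3) over all genes kept by filterByExpr (minimum count 10, total 15), with Benjamini-Hochberg adjustment at 0.05. Intervals are at 95%. Standard errors were taken from the F value. The scripts were tested on simulated counts. Positions, exon lengths and GC content came from GENCODE M21 (GRCm38), with values for 95.6% of genes tested. Alternatives were DESeq2 1.42.0, limma-voom (limma 3.58.1), other scalings and filters, blocks, left-out libraries, a term for libraries whose thymus markers averaged at least 10 CPM, and an offset for exon length and GC content (robust fit, natural splines with 4 degrees of freedom, genes above a log2 CPM of 3, values limited to the 1st and 99th percentiles).

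The scaffold genes and the lists were chosen with earlier results of these data known. The text names all 9 scaffold genes, Med12, up to 6 listed genes per direction with unadjusted p under 0.05 and separated groups, and the 4 genes most like Ttn and the scaffold gene with the largest change. Rbm20 and Ankrd1 were added after their values were seen.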

Additional observations from a re-analysis of the deposited data

How the results depend on the processing

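Across the 18 alternatives none of the 9 scaffold genes was called, and the lowest adjusted p was 0.366 (Myom2, DESeq2). Myom1, Myom2, Myom3, Mypn and Ldb3 kept their sign in all 18, with log2 fold changes from 0.0088 to 0.31, −0.58 to −0.30, 0.54 to 0.86, −0.24 to −0.064 and −0.44 to −0.26. Ttn, Nebl, Actn2 and Myoz2, all near 0, changed sign in 5, 8, 6 and 2. With library totals only, Ttn was at 0.012 and Actn2 at 0.018. Nebl was at −0.069 in limma-voom, −0.070 with the description letter as a block and −0.050 with the length and GC offset. In the libraries with letter I Nebl was at −0.70 and Actn2 at 0.050. With single libraries left out, the ranges were −0.18 to 0.062 for Ttn, −0.49 to 0.35 for Nebl, −0.089 to 0.030 for Actn2 and −0.18 to 0.17 for Myoz2. The number of scaffold genes at an unadjusted p under 0.05 (2) was 3 with the length and GC offset and with the thymus term, where Ldb3 joined, 1 in the libraries with letter I, 0 without the libraries with thymus transcripts, and 0 to 2 with single libraries left out, reaching 0 without Med12cKO replicate 1.

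Over all genes edgeR called 1 higher and 2 lower. Genes called higher were 32 in DESeq2, 2 in limma-voom, with library totals only, with the thymus term and without the libraries with thymus transcripts, and 0 with DESeq2's size factors, with the length and GC offset and in the libraries with letter I. Genes called lower were 33 in DESeq2 and 1 in the libraries with letter I. With single libraries left out 0 to 1 were higher and 1 to 2 lower. Med12 was called by DESeq2 alone (log2 fold change −1.06, adjusted p = 0.025). The cause was not tested.

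Deviations of same-numbered libraries from their group means correlated at −0.31, 0.44 and −0.35, so the numbers were not taken as pairs. The highest correlation across groups was 0.71, between CTL replicate 3 and Med12cKO replicate 1, the libraries with thymus transcripts. With the replicate number as a block 0 genes were higher and 2 lower, 0 scaffold genes were called, and Nebl stood at −0.057. Depth limits Myom3, with 18 to 43 reads a library.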
